A study of Mus musculus with 8 samples.

Results

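The genes for the glutamate and GABA receptors of the brain were examined for enrichment by a PRDM16 antibody in chromatin of the mouse cortex at E15.5, in wild-type and Prdm16 mutant tissue. They were chosen by symbol from the RefSeq annotation of mm10: Gria, Grik, Grin, Grid and Grm for glutamate receptors, and Gabra, Gabrb, Gabrg, Gabrd, Gabre, Gabrr and Gabbr for GABA receptors. The rule gave 46 of 21887 protein-coding genes. One of them encodes a protein that binds a receptor and is none itself, which leaves 26 glutamate and 19 GABA receptor genes.

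PRDM16 is a zinc-finger protein found in radial glia, the stem cells that build the cortex. Wild-type (WT) tissue was Prdm16 flox/flox, with no Cre named in its genotype. The conditional knockout (cKO) was Emx1Ires-Cre; Prdm16flox/flox, so both groups carried the floxed alleles. Cre from the Emx1 locus acts in the dorsal telencephalic lineage, and other cells of the whole-cortex lysate keep Prdm16. The chromatin was crosslinked with PFA and EGS and sonicated, and each genotype had 2 ChIP libraries with 1 list of enriched regions each. The labels do not say whether the 2 libraries of a genotype came from separate embryos or litters, so p-values measure only the spread between these libraries. Peak lists do not measure expression, and the amount of PRDM16 left in the cKO cortex was not checked. A region was given to a gene when its summit lay in the gene, or within 100 kb of it with no closer protein-coding gene.

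Glutamate, the main excitatory transmitter, opens cation channels of the AMPA, kainate and NMDA classes and also acts on metabotropic (mGlu) receptors that signal through G proteins. The delta receptors, related in sequence to the ionotropic ones, organise synapses together with secreted partners. GABA opens the chloride channels called GABA-A receptors, which are pentamers of subunits from several small families, and acts on the G protein-coupled GABA-B receptor. In the embryonic cortex, where GABA is often depolarising, both transmitters act on progenitors and young neurons before most synapses have formed.

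The annotation held promoter windows for 31 of the 46 genes, and a region of a cKO list lay over the window of 3 of them, which are shown for that reason. Each line gives the 250 bases before the annotated start site, 5′ to 3′, from RefSeq on GRCm38.p6 (the mm10 assembly). All 3 genes are on the minus strand, and capitals mark a match to the E-box CANNTG, a motif bound by basic helix-loop-helix factors.
Gabra2, chr5:71095850-71096099: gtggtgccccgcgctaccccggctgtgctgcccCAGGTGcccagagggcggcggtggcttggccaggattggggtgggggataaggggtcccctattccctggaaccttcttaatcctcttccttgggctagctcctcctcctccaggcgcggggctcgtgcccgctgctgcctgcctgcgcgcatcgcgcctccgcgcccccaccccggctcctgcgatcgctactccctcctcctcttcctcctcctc
Grik4, chr9:42944372-42944621: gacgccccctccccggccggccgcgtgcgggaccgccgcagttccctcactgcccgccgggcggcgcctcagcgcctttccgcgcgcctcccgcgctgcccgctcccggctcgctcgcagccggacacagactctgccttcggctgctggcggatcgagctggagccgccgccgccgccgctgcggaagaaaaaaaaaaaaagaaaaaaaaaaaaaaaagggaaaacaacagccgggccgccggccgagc
Grik2, chr10:49788755-49789004: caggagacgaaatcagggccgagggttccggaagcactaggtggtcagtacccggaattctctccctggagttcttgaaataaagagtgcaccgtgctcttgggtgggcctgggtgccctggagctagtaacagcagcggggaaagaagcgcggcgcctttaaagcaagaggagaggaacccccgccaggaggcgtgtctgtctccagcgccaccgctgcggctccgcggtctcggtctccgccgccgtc
The region over the Gabra2 window, with a fold enrichment of 5.96, was called in cKO replicate 1 alone. Regions over the Grik4 window had a fold of 7.20 in cKO replicate 1 and 4.50 in WT replicate 2, and those over the Grik2 window 3.94 and 4.54 in the same libraries. The cKO summits lay 213, 202 and 2 bases from the start sites of Gabra2, Grik4 and Grik2. No region held by both WT lists lay over any of the 3 windows. WT regions lay over promoter windows that are not shown too, each in a single list. These were at Gabrg1, with a fold of 6.68 in WT replicate 1, and at Gabra5, with 5.75 in WT replicate 2. The 3 windows shown were rich in G and C, at 70% in Gabra2, 69.6% in Grik4 and 62.8% in Grik2, where the median of all windows was 55.6%. On both strands the letters CANNTG occurred once in Gabra2 and in neither of the others, and were found in 62.8% of all 21263 windows. The NFI half-site TTGGCA (11.5% of windows), the Evi1-type zinc-finger motif (0.0094%) and the RE1 half-sites TTCAGCACC (0.329%) and GGACAGCGC (0.4%) had no match in these 3 windows. A match is a run of letters and no measured site.

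The receptor genes held many more enriched regions in the WT lists than in the cKO lists. WT replicates 1 and 2 had 62 and 138, and cKO replicates 1 and 2 had 20 and 9, so both WT libraries lay above both cKO libraries. The means were 100 ± 53.7 and 14.5 ± 7.78 (SD, n = 2), a ratio of 6.90. The exact permutation test over the 4 libraries, two-sided, gave p = 0.333, the smallest value that 2 against 2 allow. The whole lists differed in the same direction, with 13852, 26652, 4553 and 3088 regions. As a share of its list the receptor genes held 0.448% (95% Wilson interval 0.349 to 0.573) and 0.518% (0.438 to 0.611) in the WT replicates. In the cKO replicates they held 0.439% (0.285 to 0.678) and 0.291% (0.153 to 0.553). These intervals, which cover counting error only, overlapped in all 4 libraries. The mean share was 0.483% ± 0.0496 in WT and 0.365% ± 0.105 in cKO (SD, n = 2; exact permutation test, two-sided, p = 0.333). When every list was cut to its 3088 most significant regions, the receptor genes held 15, 15, 14 and 9, a ratio of 1.30. The larger number of receptor regions in WT thus went with the longer WT lists.

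The peak lists differ in depth as well as in genotype. The lowest background pileup, which stands for the reads per base over the genome, was 0.777 and 1.78 in the WT libraries and 2.95 and 2.52 in the cKO libraries. Peak names share 1 library identifier between both WT libraries and another between both cKO libraries; what it marks is not given, and it cannot be told apart from genotype. Regions held by both WT lists lay at the dorsal telencephalic genes Emx1, Emx2, Pax6 and Lhx2. They also lay at the radial glia genes Sox2, Vim, Hes1, Hes5 and Slc1a3. Such a region was found at 18.3% of all protein-coding genes. Pax6, Hes1 and Slc1a3 also had a region held by both cKO lists, as 6.83% of all genes did.

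**Figure D1:**
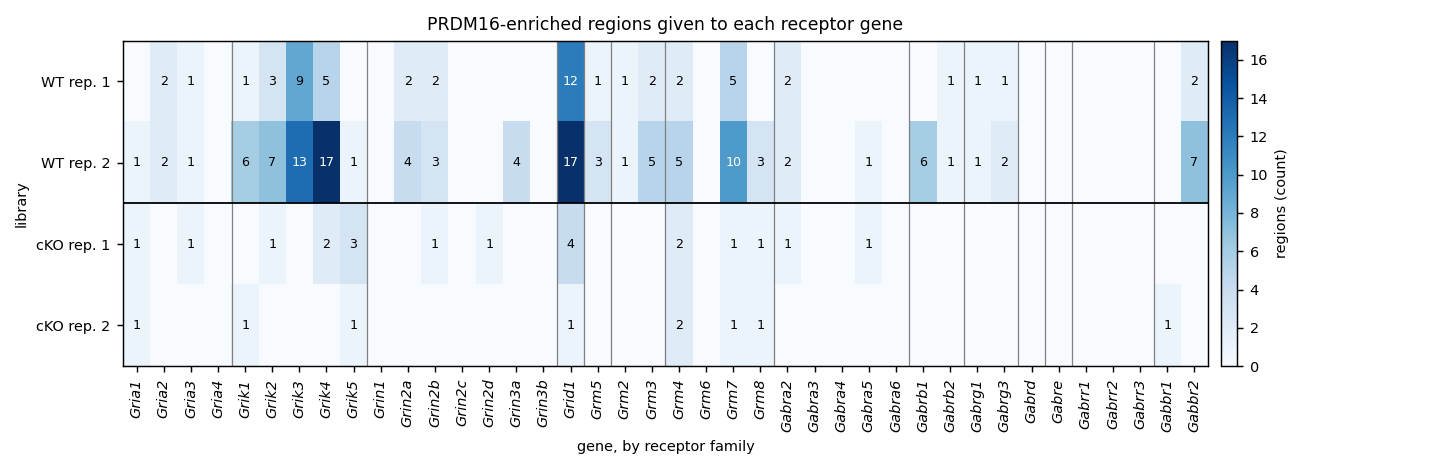
Number of enriched regions given to each of 40 receptor genes (columns, by receptor family) in each library (rows); empty cells are 0. Grid1, Grik3 and Grik4 were the fullest columns in WT, and cKO counts did not exceed 4 for any gene.

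Of the 46 genes, 22 and 28 had a region in WT replicates 1 and 2, where 23.6% and 34.5% of all protein-coding genes did. In cKO replicates 1 and 2 it was 14 and 8 genes, where 16.4% and 11.8% of all genes had one. A region held by both WT lists was found at 21 genes (45.7%, against 18.3% of all genes). The same 21 had a region of both WT lists that overlapped no cKO region, called a WT-only region (45.7%, against 16.6%). In 18 genes (39.1%, against 15.7%) each WT list had more regions than either cKO list, and the reverse held for 0 (against 1.7%). With every list at 3088 regions, 7 genes had a WT-only region (15.2%, against 4.99%). Another 16 genes (34.8%, against 56.1%) had no region in any list.

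Receptor genes are long, and their share with a WT-only region was close to that of all genes in the same length class. The median length was 184 kb for the receptor genes and 17.2 kb for all protein-coding genes. Among genes of 200 kb and over, 17 of 22 receptor genes had a WT-only region (77.3%, Wilson interval 56.6 to 89.9), against 73.2% of all such genes. Among those of 50 to 200 kb it was 3 of 11 (27.3%, 9.75 to 56.6, against 33.7%), and among those under 50 kb 1 of 13 (7.69%, 1.37 to 33.3, against 9.24%). In each class the share of all genes lay inside the interval of the receptor genes. Within each class the receptor genes were still the longer. Their median lengths were 412, 91.4 and 18.1 kb from the longest class to the shortest, against 325, 84.1 and 11.0 kb. Counted over the 16.5 Mb of genome nearest to them, receptor genes had 2.84 WT-only regions per Mb, and all protein-coding genes had 3.8 per Mb. The receptor genes were also the less dense in each length class: 3.05 against 4.96 per Mb in the longest, 1.85 against 4.26 in the middle and 1.67 against 2.77 in the shortest. The receptor values of these classes rest on 42, 4 and 1 regions. The density in each of the 4 lists was lower too, at 3.75, 8.35, 1.21 and 0.545 regions per Mb for WT replicates 1 and 2 and cKO replicates 1 and 2, against 5.84, 11.3, 2.23 and 1.5 for all genes. No test was made of these differences.

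**Figure D2:**
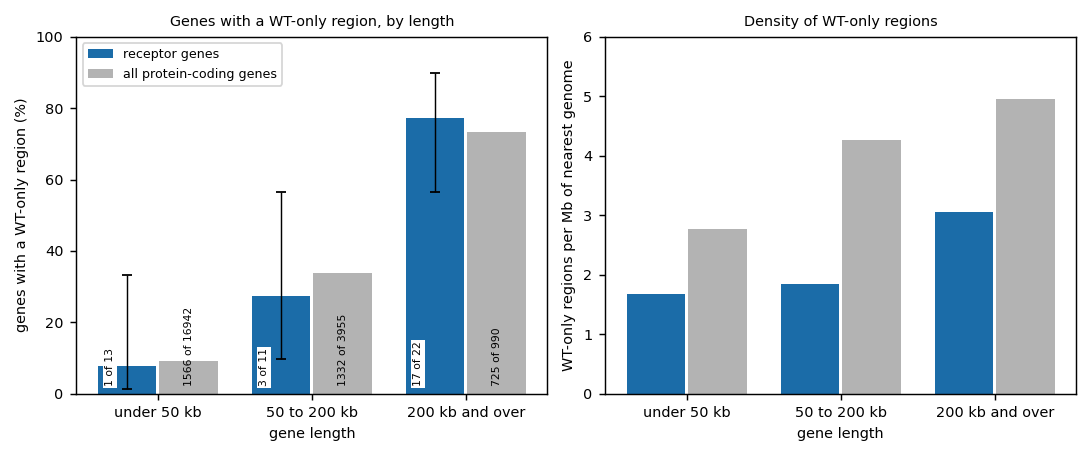
Left, percent of genes with at least 1 WT-only region, by gene length, for receptor genes (blue, with 95% Wilson intervals and counts) and all protein-coding genes (grey). Right, WT-only regions per Mb of the genome nearest to the genes. Shares were alike within each length class. The receptor genes were the less dense in all 3, with 1, 4 and 42 regions from the shortest class to the longest.

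The WT regions at receptor genes mostly lay inside the genes. Both WT lists shared 48 regions there, and 47 overlapped no cKO region (97.9%; 91.5% of the 10090 regions shared by both WT lists over the genome). These 47 were 0.509% of all 9232 WT-only regions; they numbered 11 with every list at 3088 regions and 130 when WT replicate 2, the longer list, stood for WT by itself (that is, without WT replicate 1). Of the 47, 39 lay in a gene body, 2 within 1 kb of a gene end and 6 outside the gene. Their mean fold enrichment over the 2 WT libraries ran from 4.66 to 24.1, with a median of 7.14 (7.51 for all WT-only regions). All fold values are the authors', over local background, and rank regions within a list. The summits of the 2 replicates were a median of 72 bp apart. Across the 48 shared regions the folds of the 2 replicates had a Spearman rho of 0.602, where both values come from the same sites. In all 47, the lower WT fold was above the detection limits of both cKO libraries, of which the higher was 3.30. The limits of WT replicates 1 and 2 were 3.53 and 3.01. Being called in both WT lists thus went far to fix this outcome, and nothing is concluded from it. With the lower fold divided by 2, 18 of the 47 were above both cKO limits. A site not called in the cKO can therefore hold a weaker signal that its lists do not show.

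**Figure D3:**
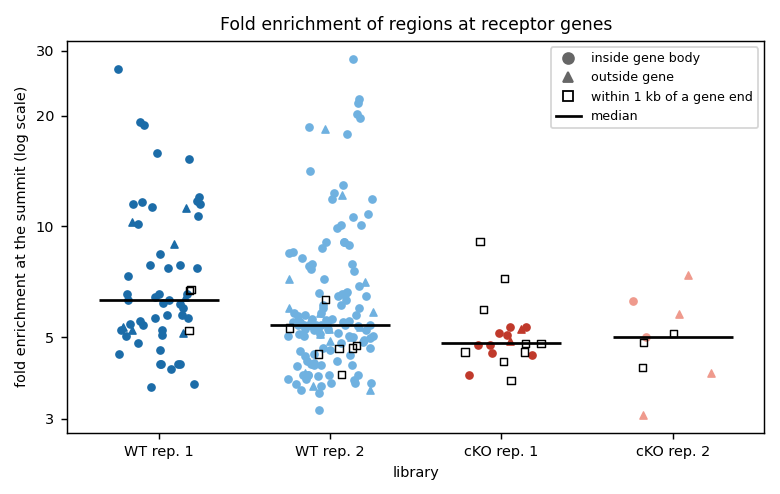
Fold enrichment at the summit (log scale) of each region at a receptor gene in the 4 libraries, with the median as a bar and the place of the region as the symbol. WT regions reach 26.7 and 28.6, cKO regions 9.12 and 7.40, and the medians lie between 4.81 and 6.29.

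The delta receptor gene Grid1 carried 10 WT-only regions, the largest number of any receptor gene. It had 12, 17, 4 and 1 regions in WT replicates 1 and 2 and cKO replicates 1 and 2. The 10 spanned 584 kb of the 763 kb gene, with a median gap of 55.8 kb. Only 48 protein-coding genes (0.219%) had as many or more, 42 of them among the 990 genes of 200 kb and over. The strongest, in the body of Grid1 at chr14:34968782-34970015, had folds of 26.7 and 21.6 (24.1 ± 3.6, SD, n = 2) over summit pileups of 56 and 121 reads. It ranked 200 among the 9232 WT-only regions and was the highest at any receptor gene. Regions of Grid1 at chr14:35112232-35114035 (18.8 and 8.19) and chr14:35374072-35375099 (11.7 and 14.1) followed. The only Grid1 region in both cKO lists, chr14:34810810-34811095, lay 9056 bp outside the gene, with folds of 5.28 and 7.40, and was also in WT replicate 1 at 5.14.

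**Figure D4:**
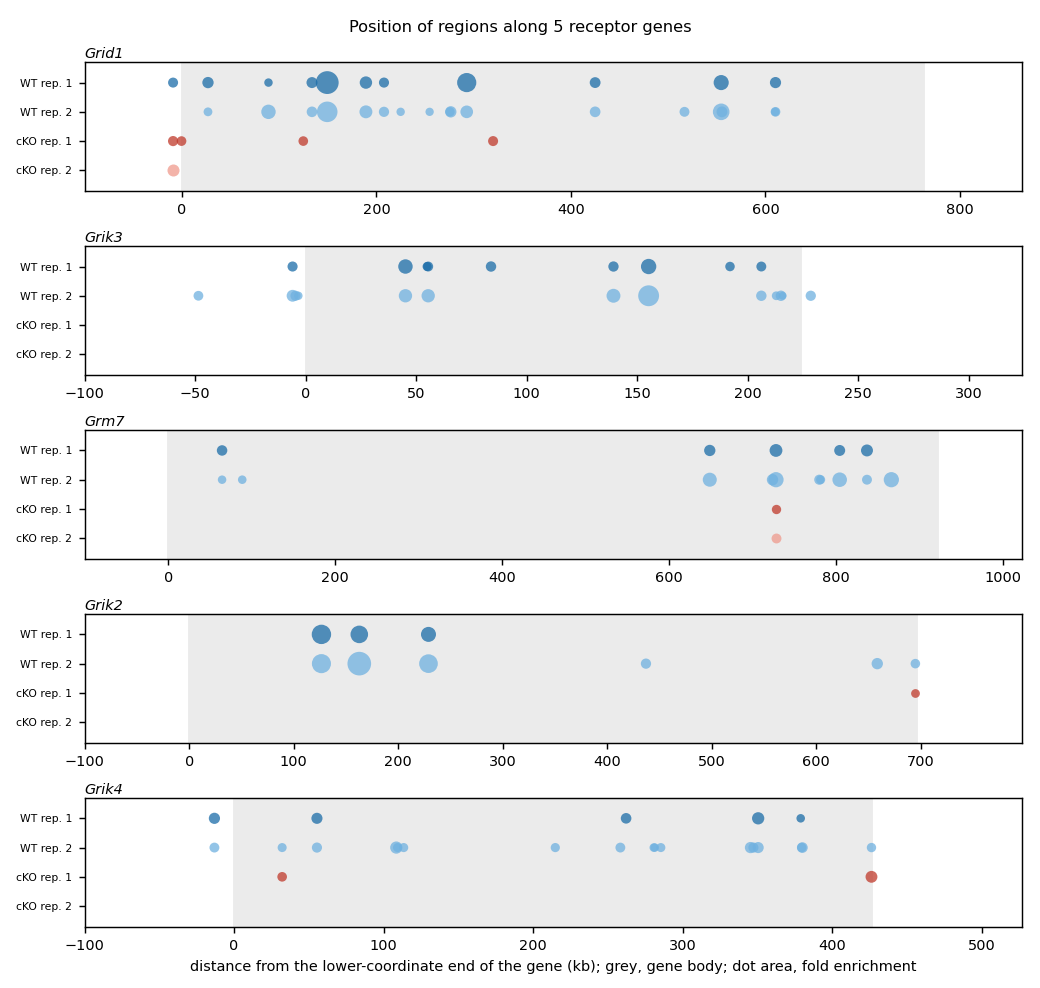
Summits along Grid1, Grik3, Grm7, Grik2 and Grik4, 5 genes with 3 or more WT-only regions each. The horizontal axis is the distance in kb from the lower-coordinate end of the gene (grey, gene body) and dot area grows with fold enrichment. Some WT dots recur at the same place in both replicates, and many of WT replicate 2 do not. Grik4, with 5 and 17 regions in WT replicates 1 and 2, had 3 in both. The cKO dots are few.

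Kainate receptor genes, whose products form channels that tune transmitter release and excitability, had 13 WT-only regions. These lay at 4 of 5 genes (80%, against 16.6% of all genes). The median length of the class was 395 kb, and 73.2% of all genes of 200 kb and over had a WT-only region. The class held 18, 44, 6 and 2 regions in the 4 lists. Grik2, which encodes a principal kainate subunit, had 3 WT-only regions within 102 kb of its body. The strongest, chr10:49256049-49256924, had folds of 15.8 and 28.6 (22.2 ± 9.04, SD, n = 2; pileups of 40 and 94 reads), and its neighbour chr10:49219729-49220599 had 19.2 and 18.6. Only Grid1 had a region with a higher mean fold. Grik3 had 9, 13, 0 and 0 regions and 6 WT-only ones, a number that 186 protein-coding genes reached. The Grik3 region chr4:125644599-125645676 had folds of 12.0 and 22.3 (17.1 ± 7.22). Grik4, a subunit that needs a principal partner to form channels, had 5, 17, 2 and 0 regions and 3 WT-only ones, the strongest at chr9:42868450-42868934 with folds of 7.71 and 6.32 (7.01 ± 0.983). Grik1 had 1, 6, 0 and 1 regions. Its WT-only region, chr16:88173932-88174579, had folds of 4.22 and 7.82 (6.02 ± 2.54), and an intergenic one 81383 bp away from the gene was in WT replicate 2 (5.11) and cKO replicate 2 (5.78). Grik5, the other subunit of the Grik4 kind, had 0, 1, 3 and 1 regions. Its body region chr7:25030167-25030397 was in both cKO lists, with folds of 5.07 and 6.26, and in neither WT list.

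AMPA receptor genes, for the channels of fast excitation, had few regions. Gria2, whose subunit limits calcium entry, had 2 WT-only regions with summits 645 bp apart, 72769 and 73414 bp outside the gene; the stronger, chr3:80607849-80608214, had folds of 11.2 and 12.1 (11.7 ± 0.654, SD, n = 2). Gria3 had 1, in its body at chrX:41558459-41558850, with folds of 11.3 and 9.09 (10.2 ± 1.53), and a cKO replicate 1 region of 4.56 within 316 bp of a gene end. Gria1 differed from both. Its only region held by 2 lists was cKO-only, with folds of 9.12 and 5.12, 51 bp from a gene end at chr11:57011538-57011752, and the first value was the highest of any receptor region in a cKO list. In WT replicate 2 Gria1 had a single region, of 4.86, in its body. Gria4 spans 378 kb and had no region in any list.

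NMDA receptor genes, for the channels that detect coincident activity, had a WT-only region at 2 of 7 (28.6%, against 16.6% of all genes). Both genes are over 200 kb long, a class in which 73.2% of all genes had one. The WT-only region of Grin2a lay 34397 bp outside the gene at chr16:9532900-9534358, with folds of 10.3 and 18.3 (14.3 ± 5.71, SD, n = 2). That of Grin2b lay inside the gene, 7778 bp from its end, with folds of 4.24 and 7.55. Grin2b also had a cKO replicate 1 region of 4.31 within 75 bp of that end. Grin2d had 1 region, of 5.32, in cKO replicate 1, and Grin3a had 4 regions, from 3.69 to 7.89, in WT replicate 2 alone. Grin1, which encodes the subunit that every NMDA receptor contains, had no region in any list, nor had Grin2c and Grin3b.

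Of the metabotropic receptor genes, 6 of 8 had a WT-only region (75%, against 16.6% of all genes). Their median length was 318 kb, and 73.2% of all genes of 200 kb and over had a WT-only region. In group I, whose receptors act through phospholipase C, Grm5 had 1 (folds of 4.81 and 6.01) and no cKO region. In group II, whose receptors lower cyclic AMP, the Grm3 region chr5:9661864-9662544 stood out, with folds of 15.2 and 19.7 (17.5 ± 3.19, SD, n = 2) in the body of a gene also known from astrocytes. The other gene of that group, Grm2, was the 1 gene under 50 kb with a WT-only region, at folds of 5.34 and 5.84, 1228 bp outside it. Group III, also lowering cyclic AMP, was mixed. Grm7 had 5, 10, 1 and 1 regions and 4 WT-only ones. It also held the 1 receptor site found in all 4 lists, chr6:111372738-111373355, in the gene body. That site had folds of 8.41 and 11.9 in WT (10.1 ± 2.44) and 4.46 and 5.01 in cKO, over pileups of 17, 32, 20 and 26 reads. Grm4 had 2, 5, 2 and 2 regions. Its WT-only region lay at a gene end, with folds of 6.75 and 5.30 (6.03 ± 1.03), and another, 21016 bp outside the gene, was in both cKO lists (4.87 and 3.99) and in no WT list. Grm8 had 0, 3, 1 and 1 regions, and the cKO regions overlapped each other 812 bp from the start site (3.81 and 4.14); a WT replicate 2 region of 6.33 ended just short of them, at chr6:28135442-28135826 beside chr6:28135895-28136155. Grm6, the receptor of retinal bipolar cells, had no region in any list.

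Of 17 GABA-A receptor genes 4 had a WT-only region, 1 each (23.5%, against 16.6% of all genes), and 10 had no region in any list (58.8%, against 56.1%). Their median length was 90.7 kb, and of all genes of 50 to 200 kb 33.7% had a WT-only region. Gabrb2 had the strongest WT-only region of the class, chr11:42501155-42501632, with folds of 11.7 and 8.46 (10.1 ± 2.29, SD, n = 2). In Gabra2, whose subunit is prominent in the embryonic brain, the WT-only region chr5:71010981-71012040 lay in the body, with folds of 6.33 and 6.56 (6.44 ± 0.161), away from the cKO region over its promoter. The WT-only region of Gabrg3 had folds of 5.39 and 6.47. Gabra5 had a region of 4.81 at 1 end in cKO replicate 1. Gabrb1 had 6 regions, from 4.59 to 6.11, all in WT replicate 2 alone, and Gabra5 also had 1 of 5.75 there. Gabrg1 had a region in each WT list near 1 end, and these did not overlap. Gabra3, Gabra4, Gabra6, Gabrd, Gabre, Gabrr1, Gabrr2 and Gabrr3 were empty. Among the GABA-B genes, whose products work only as a pair, Gabbr2 had 2, 7, 0 and 0 regions and a WT-only one at chr4:46854670-46855323, with folds of 7.71 and 8.93 (8.32 ± 0.866). Its partner Gabbr1 had none but a cKO replicate 2 region of 4.84, 460 bp from its start site.

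Most GABA-A genes lie in clusters that arose by duplication, and the clusters differed in span as well as in number of regions. The counts below are not corrected for span, and no difference between clusters is drawn from them. All protein-coding genes had 3.8 WT-only regions per Mb of nearest genome. The chromosome 5 cluster of Gabrg1, Gabra2, Gabra4 and Gabrb1 spans 1399 kb and had 3, 9, 1 and 0 regions with 1 WT-only. Gabrr1 with Gabrr2 on chromosome 4, over 106 kb, and Gabre with Gabra3 on chromosome X, over 400 kb, held no region.

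Glutamate receptor genes thus held most of the regions. They had 54, 116, 18 and 8 in the 4 lists and 42 WT-only, at 16 of 26 genes (61.5%, against 16.6% of all genes). The GABA receptor genes had 8, 22, 2 and 1 and 5 WT-only, at 5 of 19 genes (26.3%). The groups also differed in size: the median length was 298 kb for the glutamate and 90.7 kb for the GABA receptor genes. Per Mb of nearest genome the glutamate genes had 3.48 and the GABA genes 1.14 WT-only regions, against 3.8 for all protein-coding genes. Within genes of 200 kb and over these were 3.42 and 1.51 per Mb, against 4.96 for all such genes. There, 13 of 16 glutamate and 4 of 6 GABA genes had a WT-only region, against 73.2% of all such genes. The glutamate genes were denser than the GABA genes on both counts, and both groups were less dense than all genes. Their difference was not tested, and the 10 regions of Grid1 and 6 of Grik3 are part of the 42.

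Receptor regions of the cKO lists lay at gene ends far more often than those of the WT lists. Within 1 kb of either end of a gene lay 4 of 62 (6.45%, Wilson interval 2.54 to 15.4) and 6 of 138 (4.35%, 2.01 to 9.16) in WT replicates 1 and 2. Of the cKO regions, 9 of 20 (45.0%, 25.8 to 65.8) and 3 of 9 (33.3%, 12.1 to 64.6) lay there. Both cKO intervals lay wholly above that of WT replicate 2, and that of cKO replicate 2 overlapped that of WT replicate 1. The means were 5.40% ± 1.49 in WT and 39.2% ± 8.25 in cKO (SD, n = 2; exact permutation test, two-sided, p = 0.333, the smallest possible). Among all regions given to a gene the shares were 12.3%, 12.0%, 41.8% and 42.0%, so the cKO excess at gene ends was also present over all genes. In WT the receptor shares were the lower ones, and the interval of WT replicate 2 lay below 12.0%. These shares were not compared among genes of like length. The median length was 184 kb for the receptor genes and 17.2 kb for all protein-coding genes, and the window at a gene end was 1 kb for both. The gene ends with a cKO region were those of Gria1, Gria3, Grid1, Grik4, Grik5, Grin2b, Grm8, Gabra2, Gabra5 and Gabbr1. This comparison was added after the values were seen.

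**Figure D5:**
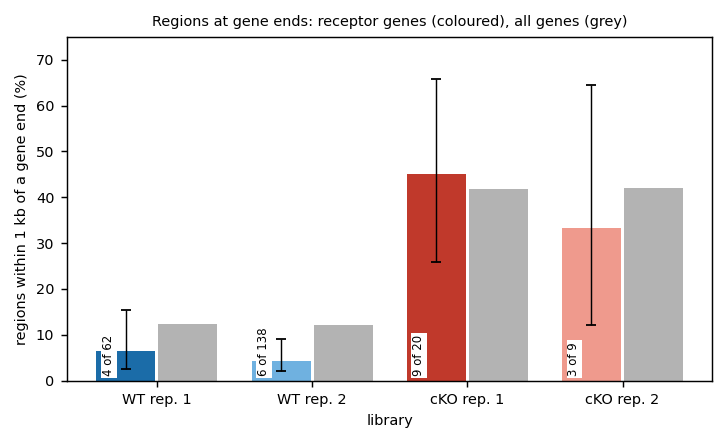
Percent of regions at receptor genes (coloured, with 95% Wilson intervals and counts) and of all regions given to a gene (grey) that lie within 1 kb of a gene end, by library. Receptor shares are 6.45% and 4.35% in WT and 45.0% and 33.3% in cKO.

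A region held by both cKO lists was found at 6 receptor genes (13.0%, against 6.83% of all genes): Gria1, Grid1, Grik5, Grm4, Grm7 and Grm8. At 4 of them (8.70%, against 3.43%), Gria1, Grik5, Grm4 and Grm8, it was in neither WT list. The 6 became 3 when summits outside gene bodies were not counted, and 14 without cKO replicate 2, with the list of cKO replicate 1 alone. By length, that was 4 of 22 receptor genes of 200 kb and over (18.2%, Wilson interval 7.31 to 38.5, against 17.2% of all such genes) for regions of both cKO lists, and 2 of 11 of 50 to 200 kb (18.2%, 5.14 to 47.7, against 10.6%). Of the shorter genes 0 of 13 had one (0%, upper bound 22.8, against 5.34%). Replicate lists overlapped at receptor genes about as they did elsewhere. Of the receptor regions of WT replicate 1, 51 of 62 (82.3%) were found in WT replicate 2, against 78.2% of the whole list. In the other direction, 48 of the 138 of WT replicate 2 (34.8%) were found in WT replicate 1, against 38.7%. From cKO replicate 1, 6 of 20 (30%, 14.5 to 51.9) were found in cKO replicate 2, against 38%. From cKO replicate 2, 6 of 9 (66.7%, 35.4 to 87.9) were found in cKO replicate 1, against 56.3%. A region of either WT list overlapped 7 of the 20 (35%, against 37.2% of the whole list) and 3 of the 9 (33.3%, against 42.2%) cKO regions. Over the 4 lists there were 163 distinct sites, of which 10 and 83 were in WT replicate 1 or 2 alone, and 9 and 2 in cKO replicate 1 or 2 alone.

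Partner genes of the receptors were described from a list of 55: 21 had a WT-only region (38.2%, against 16.6% of all genes), 23 a region of both WT lists (41.8%, against 18.3%) and 10 a region of both cKO lists (18.2%, against 6.83%). The median length of these genes was 68.3 kb, and of all genes of 50 to 200 kb 33.7% had a WT-only region. Among 8 genes of glutamate synthesis and transport 6 had a WT-only region, and among 28 auxiliary subunits and scaffolds of glutamate receptors 10 did. Of 12 genes of the inhibitory synapse 4 did, and of 7 GABA-A and glycine receptor genes outside the rule only Glrb did. Slc1a3, the glutamate transporter of radial glia and astrocytes, had 13, 17, 1 and 1 regions, and its strongest, at chr15:8659199-8660565, had folds of 48.1 and 38.6 (43.4 ± 6.73, SD, n = 2). That mean was above those of all receptor regions. Next were the postsynaptic scaffold Shank2 (13.7 ± 3.39, at a region also found in a cKO list) and the AMPA receptor auxiliary proteins Shisa9 (11.9 ± 6.43), Gsg1l (10.1 ± 0.0495) and Shisa6 (9.26 ± 0.491).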

How the data were processed

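PRDM16 ChIP-seq was measured in 4 libraries of E15.5 mouse cortex, 2 WT and 2 cKO; input libraries were not analysed here. FastQC, cutadapt, Bowtie2 2.2.8, MACS2 2.1.1 and mm10 are named, per the submitters' processing notes, without settings. Each ChIP library has its own narrowPeak list, deposited by the authors, and replicates were not pooled. Enrichment in the deposited lists is a fold (ratio) over local background. The authors give peak significance as −log10 of the p-value and of the q-value; the highest q-values listed were 0.0491, 0.0440, 0.0465 and 0.0454. Summit offsets in the deposited lists are in bases. The sources used here do not give which input served which ChIP library.

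Lines on contigs (12, 14, 37 and 19) were left out. Regions of 2 lists were shared when at least 1 bp overlapped. The lists hold no read totals; whole-number summit pileups and backgrounds were solved from fold and p-value, to within 0.0001 in −log10 p for 99.9% to 100% of summits. The median pileup at receptor regions was 11, 16, 19.5 and 20 reads. Detection limits are the smallest fold that would pass the p-value threshold seen in a list, at that library's median background. Genes came from a RefSeq table of GRCm38.p6. It gives no exons, so exons and introns were not separated. Promoter sequences came from RefSeq windows of the same assembly, and sequence elsewhere in the genome was not used here. Shares carry Wilson 95% intervals. Analyses used Python 3.11.15, pandas 2.3.3 and SciPy 1.17.1, checked on simulated data.

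Groups were WT against cKO, compared with exact permutation tests over libraries, two-sided, with a threshold of 0.05; lists of genes were described by counts beside all protein-coding genes. Receptor genes were named within their families, except a few that are not reported here, with full values for the strongest region of the 15 genes with the highest mean fold and for the region of both WT lists found in cKO, and the 5 partner genes of highest fold. Members and lists were chosen with earlier results of these data known. Alternatives were a stricter q-value, overlap of 50%, shorter distances, lists of equal length, every deposited line, leaving out each library and the replicate number as a block.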

Additional observations from a re-analysis of the deposited data

How the results depend on the processing

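No ratio or difference of means changed direction under the alternatives. No tested difference crossed the threshold of p, which 2 libraries against 2 cannot pass, so this says nothing of stability. Of the counts of genes and regions, 5 moved by more than 1.5 times. With all lists cut to 3088 regions, the ratio of receptor regions fell from 6.90 to 1.30, the genes with a WT-only region fell from 21 to 7 and the WT-only regions from 47 to 11. With gene bodies alone, the genes with a region in both cKO lists numbered 3 in place of 6. Leaving out each library in turn gave a ratio of receptor regions of 4.28 to 11.1, a difference in share of list of 0.0434 (without cKO replicate 2) to 0.191 percentage points against 0.117 with all libraries, 21 to 27 genes with a WT-only region and 47 to 130 WT-only regions. It gave 6 to 14 genes with a region in both cKO lists and a gene-end difference of -39.6 to -27.9 points. The 130 came without WT replicate 1 and the 14 without cKO replicate 2, where a single list stands for the genotype. With a −log10 q of at least 5 there were 15 genes and 32 WT-only regions. At that setting the share of list was 0.395% and 0.532% in WT replicates 1 and 2. It was 0.479% and 0.254% in cKO replicates 1 and 2, so the libraries no longer separated by genotype (exact permutation test, two-sided, p = 0.667). The replicate number as a block gave a ratio of 6.89, a share difference of 0.117 and a gene-end difference of -33.8 points, each with an exact permutation p of 0.5, the smallest that 2 pairs allow. Deviations of same-numbered libraries, in region counts per gene, had a correlation of 0.0192 over 9610 genes. Such counts also depend on the length of each list, so this value cannot show whether the numbers mark a pairing. The main tests used no pairing. The cause of these shifts was not tested. Pileups of 7 to 56 reads at summits in WT replicate 1 limit what its list can show.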
